A study of Rattus norvegicus with 6 samples.

Results

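The genes described here are 7 genes of peripheral myelin, namely Pmp22, Mbp, Mag, Prx, Egr2, Pllp and Cnp, in cells cultured from dorsal root ganglia of the rat. These ganglia lie beside the spinal cord and hold sensory neurons with the glia around them. The 7 genes were chosen by name from the deposited mRNA table of 16551 genes, and all 7 were present, each on 1 row: Pmp22 (ENSRNOG00000003338), Mbp (ENSRNOG00000016516), Mag (ENSRNOG00000021023), Prx (ENSRNOG00000018369), Egr2 (ENSRNOG00000000640), Pllp (ENSRNOG00000016558) and Cnp (ENSRNOG00000017496). Cells from the ganglia of spinal levels L5 to S3 were kept for 48 h in DMEM as control (3 samples, labelled control) or in high-glucose medium (45 mmol/L; 3 samples, titled DM, read here as the high-glucose arm because the labels name only these 2 groups). The glucose of the control medium, the rats' strain and age, and a control for osmolarity are not given in the labels, which call the 3 samples of a group duplicates without saying whether they came from separate cultures. The p-values therefore reflect the spread among these samples alone, and that spread may be technical. The culture protocol mentions fixation without saying whether it applied to the sequenced cells, which had been released from the ganglion with trypsin. The labels call them nerve cells. Of 14 neuron markers, 6 were at 0 reads in at least 1 sample, among them Rbfox3, Isl1 and Pou4f1, whereas Uchl1 had 1433 to 1825 reads and Tubb3 261 to 698.

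Peripheral myelin is the membrane that Schwann cells wrap around axons. Its compact part holds the membrane protein Pmp22 and Mbp, which binds the inner faces of the membrane. Mag is an adhesion protein of the membrane next to the axon, Prx (periaxin) ties the outer membrane to the basal lamina, and Cnp is an enzyme of the cytoplasm-filled parts of the sheath. Egr2 (Krox20) is the transcription factor that, with Sox10, switches on the myelin programme, and Schwann cells without axon contact are known to keep that programme low. Pmp22 and Cnp are also made outside myelin, Pmp22 in growth-arrested fibroblasts among others, and Mbp shares its locus with the Golli transcripts, which neurons and immune cells make. The counts are per gene and do not separate transcripts.

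In high glucose, Mbp fell 2.52-fold, Egr2 1.33-fold and Pmp22 1.11-fold, whereas Prx, Cnp, Pllp and Mag did not pass the test. Of the 7 genes, 3 passed in either direction, beside 50.5% of all genes. All 3 were lower, beside 25.5% of all genes, and none was higher, beside 24.9%. In 4 of the 7 (Mag was the fourth) every high-glucose value lay below every control value, as in 28.9% of all genes. None lay wholly above, as 28.7% did, and 57.6% of all genes had groups apart in either direction. The median log2 fold change of the 7 was -0.15, beside 0.01 over all genes. All 16551 genes were tested together with limma, with its variance prior following the mean level, and a gene passed at a Benjamini-Hochberg adjusted p under 0.05. The samples held 28780612 to 33108451 reads in the mRNA table.

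The promoters are shown for Egr2 and Pmp22, which fell, and for Cnp, which did not pass and whose window alone held matches to both motifs searched. RefSeq windows of 300 bases (250 before and 50 after a gene's start, build GRCr8) were found for all 7 genes, 2 of them for Mbp. The motifs were GCGTGGG, of the EGR family, and ACAAAG, of the SOX family, searched on both strands, and they do not overlap each other. Matches are in capitals, and the sequences run 5′ to 3′ along the gene's strand. The Egr2 window is chr20:21054392-21054691 (minus strand), that of Pmp22 is chr10:48294682-48294981 (plus strand) and that of Cnp is chr10:86011254-86011553 (plus strand).
Egr2: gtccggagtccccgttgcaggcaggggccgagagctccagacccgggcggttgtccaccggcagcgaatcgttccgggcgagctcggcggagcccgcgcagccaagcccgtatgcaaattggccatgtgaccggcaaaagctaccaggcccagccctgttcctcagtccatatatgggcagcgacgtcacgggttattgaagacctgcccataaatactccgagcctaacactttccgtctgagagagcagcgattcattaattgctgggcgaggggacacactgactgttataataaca
Pmp22: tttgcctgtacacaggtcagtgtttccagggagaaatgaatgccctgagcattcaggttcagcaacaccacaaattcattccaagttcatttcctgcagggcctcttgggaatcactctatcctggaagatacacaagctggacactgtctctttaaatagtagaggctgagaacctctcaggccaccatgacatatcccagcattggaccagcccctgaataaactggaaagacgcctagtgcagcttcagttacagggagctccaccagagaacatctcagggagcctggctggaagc
Cnp: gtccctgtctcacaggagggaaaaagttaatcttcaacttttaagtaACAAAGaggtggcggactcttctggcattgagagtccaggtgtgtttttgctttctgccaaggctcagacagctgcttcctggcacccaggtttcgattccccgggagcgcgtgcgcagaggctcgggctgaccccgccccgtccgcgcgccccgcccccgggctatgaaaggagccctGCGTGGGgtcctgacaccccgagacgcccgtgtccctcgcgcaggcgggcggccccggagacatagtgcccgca
In Cnp the EGR match began 24 bases and the SOX match 203 bases before the start. The EGR motif was found in 1 of the 8 windows of these genes and in 4.33% of all 33469 windows. The SOX motif was found in 3 of the 8 windows (Cnp, Mag and the downstream window of Mbp) and in 18.8% of all windows. A match describes letters only, and the windows that lack one say nothing of the factor.

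Mbp, the structural protein of the cytoplasmic face of compact myelin, had the clearest difference of the 7. Its level was 17.4, 15.1 and 17.2 counts scaled to library size (CPM, 2 to the power of the deposited log2 value) in the control samples and 6.55, 6.43 and 6.76 CPM in high glucose. The groups lay far apart and each was tight. The means were 16.6 ± 1.32 (SD, n = 3) and 6.58 ± 0.165 CPM, on 1458 reads in control and 627 in high glucose. The log2 fold change was -1.33 ± 0.08 (SE), with an adjusted p of 8.89e-09 in limma. Of all genes, 343 that passed were lower by at least as much.

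Pmp22, the compact-myelin protein whose dosage is altered in inherited neuropathies, was lower by a small amount. It stood at 82.4, 80.2 and 79.9 CPM in control and at 73.1, 70.6 and 74.8 CPM in high glucose. The groups did not overlap, but the gap was narrow beside the level. The log2 fold change was -0.15 ± 0.03 (adjusted p = 0.00129 in limma, on 7128 and 6953 reads). With plain library totals in place of the deposited scaling, which moves the median of all genes up by 0.11, it was -0.037 and did not pass (adjusted p = 0.323). Over the 14 alternatives its adjusted p ran from 0.00102 to 0.323.

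Mag and Pllp were scarce. Mag, the adhesion protein of the innermost wrap, had 1, 3 and 1 reads in the control samples and 1, 0 and 0 in high glucose. Control exceeded high glucose 5.41 times, but the exact 95% interval from counting error reached from 0.605 to 256, so that no difference was detectable at this depth. In limma the log2 fold change was -1.58 ± 0.86 (adjusted p = 0.15). The normalized values of Mag did not overlap between groups, although 2 control samples and 1 high-glucose sample had the same single read. Pllp (plasmolipin), a membrane proteolipid of myelin, had 13, 15 and 12 reads in control and 21, 17 and 15 in high glucose. Its levels of 0.423 to 0.502 and 0.454 to 0.716 CPM overlapped, and its log2 fold change was 0.27 ± 0.32 with a 95% interval from -0.41 to 0.96 (adjusted p = 0.509 in limma).

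Prx, the scaffold that anchors the sheath to the dystroglycan complex of the basal lamina, stood at 13.7, 12.2 and 15.0 CPM in control and 13.4, 13.3 and 14.2 CPM in high glucose. The high-glucose samples lay inside the range of the controls. The log2 fold change was -0.00017 ± 0.077, with a 95% interval from -0.17 to 0.17 (adjusted p = 0.999 in limma). Cnp, the cyclic nucleotide phosphodiesterase of myelinating glia, stood at 62.0, 61.5 and 62.5 CPM in control and 55.9, 63.0 and 59.5 CPM in high glucose. The control samples were close together and the high-glucose samples spread to both sides of them. The log2 fold change was -0.06 ± 0.04, with a 95% interval from -0.15 to 0.03 (adjusted p = 0.239 in limma). Without high glucose 2, the highest of its group, it was -0.10 and passed (adjusted p = 0.043), within a range of 0.043 to 0.784 over the alternatives. The sign of both genes depended on the scaling: with plain library totals Prx was at 0.11 and Cnp at 0.052, neither passing.

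Egr2, the transcription factor of the set, stood at 12.2, 11.7 and 12.7 CPM in control and 10.1, 8.73 and 8.63 CPM in high glucose. All high-glucose samples were below all controls. The log2 fold change was -0.41 ± 0.08 (adjusted p = 0.000762 in limma, on 1072 and 870 reads), and it kept its sign and passed under all 14 alternatives, from -0.49 to -0.30.

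**Figure D1:**
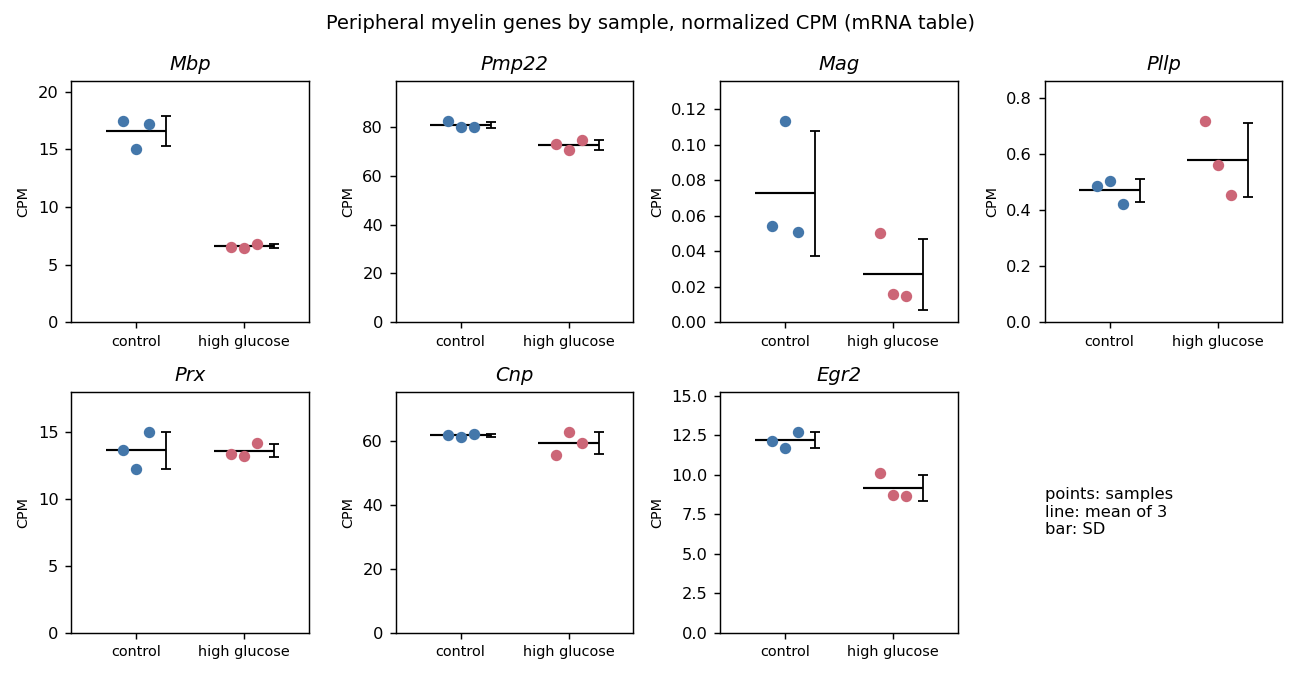
Normalized CPM (vertical axes, from 0) of the 7 genes in the 3 control (blue) and 3 high-glucose (red) samples, with the mean as a line and the SD as a bar. Mbp went from 16.6 to 6.58 CPM and Egr2 and Pmp22 show narrower gaps, while the samples of Prx, Cnp and Pllp overlap and Mag rests on 6 reads in all.

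Genes with the most similar pattern over the 6 samples were sought by Pearson's r among the 12247 genes whose log2 values averaged 0 or more, for the 5 of the 7 genes above that level. The closest to Mbp were Huwe1 and Dhx36 (r = 0.9996 and 0.9995), but 2184 genes had an r over 0.95 with it. For Pmp22 the closest were Prss16 (0.9998) and Babam1 (0.9995), with 901 genes over 0.95. For Egr2 they were Slc25a46 (0.996) and Tbc1d10a (0.996), with 406 genes over 0.95. For Prx they were Fancf (0.974) and LOC100909709 (0.969) and for Cnp Tmem199 (0.981) and Lipt1 (0.980), with 6 and 8 genes over 0.95. Among the members themselves, r was 0.95 between Mbp and Pmp22 and 0.936 between Mbp and Egr2, and 0.073 to 0.106 between Prx and each of the other 4. These values are descriptions over 6 samples of the same 2 groups.

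Other myelin proteins, a list of 20 of which 19 were measured, moved in both directions. Of the 19, 8 fell and 2 rose, beside 25.5% and 24.9% of all genes. The median log2 fold change was -0.23, and -0.12 with plain library totals. The tetraspanin Tspan2 fell by 0.68 ± 0.05 on the log2 scale. Mpp6, a scaffold of the sheath's inner adhesion sites, fell by 0.77 ± 0.06 and Dag1 (dystroglycan) by 0.36 ± 0.02. Sirt2, a deacetylase found in myelin, fell by 0.23 ± 0.03 and the tetraspanin Cd82 by 0.22 ± 0.04. Dag1 stood at 541.9 to 712.6 CPM over the samples, and which cells of these bulk samples made these transcripts was not tested.

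Drp2, the dystrophin-related protein that binds Prx, went the other way. It stood at 5.64, 6.10 and 5.06 CPM in control and at 12.8, 10.6 and 13.2 CPM in high glucose, with no overlap. It rose 2.18-fold (1.12 ± 0.10, adjusted p = 8.21e-07 in limma), while its partner Prx had a value of -0.00017. The tetraspanin Cd9 rose 1.49-fold (0.57 ± 0.08). Gjb1 (connexin 32), the gap junction protein of the sheath, had 6, 11 and 9 reads in control and 0, 0 and 9 in high glucose. By reads it stood 3.12 times higher in control (exact 95% interval from counting error 1.42 to 7.58). It passed (-2.85 ± 0.94, adjusted p = 0.0217 in limma) although high glucose 3 lay within the controls, and the call ended without control 2 (0.0702), control 3 (0.0601), high glucose 1 (0.0915) or high glucose 2 (0.0744). One variance prior for all genes ended it too (0.126). Pmp2, Mal, Gjc3, Ncmap, Cldn19 and Bcas1 were scarce, none at more than 21 reads in a sample, and did not pass. Cryab, Mpzl2 and Mog did not pass either, with values of -0.05, -0.28 and 0.10.

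**Figure D2:**
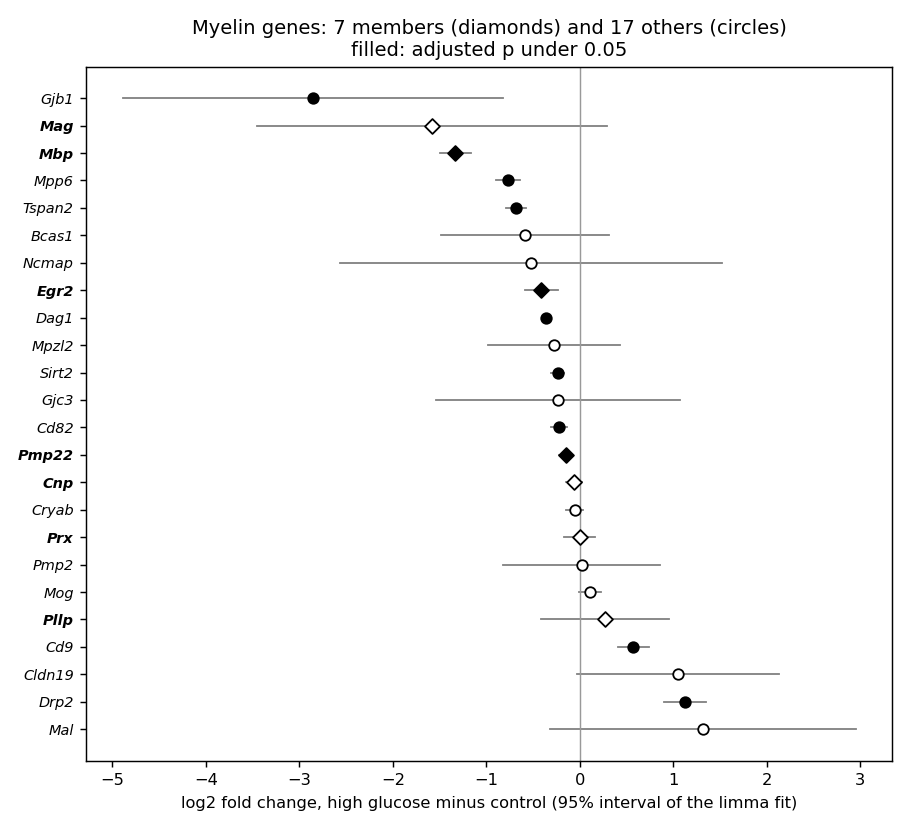
Log2 fold change (horizontal axis, high glucose minus control) with its 95% interval for the 7 genes (diamonds, bold names) and 17 of the other myelin genes (circles), filled where the adjusted p was under 0.05. Mbp at -1.33 lies to the left with a narrow interval, Drp2 at 1.12 lies to the right, and the scarce genes Gjb1, Mag and Mal have wide intervals.

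Markers of the Schwann cell lineage were lower in the same samples. All 15 measured of a list of 16 fell, against 25.5% of all genes, with a median log2 fold change of -0.87, and their summed level was 965 to 1004 CPM in control and 543 to 584 CPM in high glucose. With 1 sample left out, 13 to 15 fell. The median was -0.76 with plain library totals and -0.72 with either filter on low values. None of the 15 was at 0 in any sample. Sox10, the lineage's transcription factor, stood at 78.0, 74.0 and 75.0 CPM in control and 45.7, 43.7 and 50.9 CPM in high glucose (-0.70 ± 0.05, adjusted p = 5.76e-08 in limma), and S100b, its calcium-binding protein, went from 63.2 to 65.4 CPM down to 45.4 to 50.1 CPM (-0.44 ± 0.04). The adhesion molecules L1cam and Ncam1 fell by 1.65 ± 0.05 and 0.87 ± 0.02. In these bulk samples, fewer Schwann cells and less RNA per Schwann cell cannot be told apart, for Mbp and the other genes alike. The part of these markers in the members' differences was not tested, and the ratios that follow only describe.

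Reads of each gene were set against the reads of Sox10 in the same sample, a ratio that needs no scaling between samples. This comparison was chosen after the data were seen. Mbp had 22.3, 20.4 and 23.0 reads per 100 reads of Sox10 in control and 14.3, 14.7 and 13.2 in high glucose, a ratio 1.55-fold lower. The ratio was higher in high glucose, with no overlap, for the other 5 measurable members. It was 105.7 to 108.4 against 146.9 to 161.6 for Pmp22, 79.5 to 83.3 against 116.9 to 144.1 for Cnp and 16.5 to 20.03 against 27.8 to 30.3 for Prx. For Egr2 it was 15.56 to 16.92 against 16.94 to 22.12, so that the groups nearly touched, and for Pllp 0.541 to 0.656 against 0.864 to 1.53. Sox10 itself fell by 0.70 on the log2 scale, so a gene at an unchanged level, such as Prx (-0.00017), had a ratio higher by that fall alone. The higher ratios thus largely restate the fall of Sox10.

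With S100b in place of Sox10, Mbp stood at 23.8 to 27.2 reads per 100 in control and 13.5 to 14.1 in high glucose. Pmp22, Cnp and Prx again had higher ratios in high glucose without overlap, with log2 differences of 0.29, 0.38 and 0.44. The ratio of Egr2 to S100b overlapped between groups, at 18.4 to 19.4 and 17.2 to 21.6, with a log2 difference of 0.026 beside 0.28 with Sox10. Over 12 ratios (6 genes and 2 reference genes), the smallest two-sided p that an exact permutation test of 3 against 3 samples can give is 0.10 (0.109 after Benjamini-Hochberg adjustment), so none could pass. Mag had too few reads for a ratio. Sox10 and S100b fell by 0.70 and 0.44, less than the Schwann lineage list's median of -0.87. L1cam of the same list fell by 1.65, more than Mbp (-1.33), so the direction of the Mbp ratio depends on the reference chosen.

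**Figure D3:**
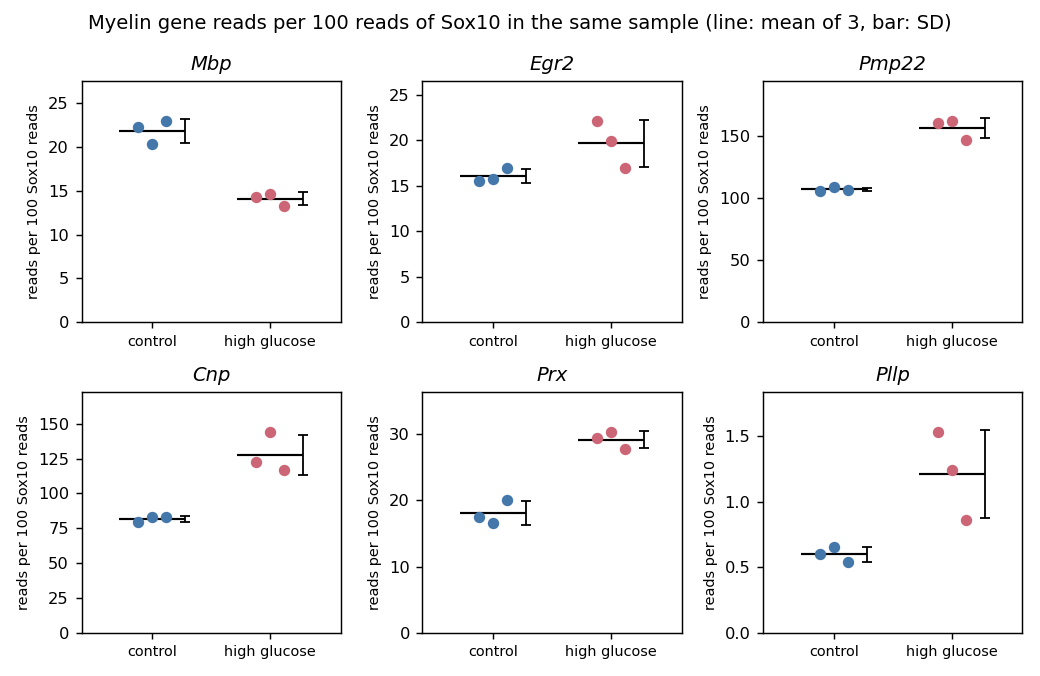
Reads per 100 reads of Sox10 in the same sample (vertical axes, from 0) for 6 of the 7 genes in the 3 control (blue) and 3 high-glucose (red) samples, with mean and SD. Mbp is lower in high glucose, and Egr2, Pmp22, Cnp, Prx and Pllp are higher in all 3 high-glucose samples. Sox10 itself was lower in high glucose.

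Of the genes that promote myelination, 10 of 23 measured fell and 3 rose, beside 25.5% and 24.9% of all genes (median log2 fold change -0.07). With quantile normalization 5 rose, beside 4139 of all 16551 genes, and the median was -0.034. With plain library totals 7 rose, beside 5932 of all 16551 genes, and the median was 0.05. Adgrg6, the G-protein coupled receptor that starts Egr2 expression in Schwann cells, was 2.76-fold lower (-1.46 ± 0.04, adjusted p = 3.41e-12 in limma). Lgi4, a secreted protein needed for timely myelination, fell 2.61-fold (-1.38 ± 0.08). Nrg1, the neuregulin that tells Schwann cells to myelinate, fell 2.22-fold (-1.15 ± 0.03), and its receptor Erbb3 1.48-fold (-0.56 ± 0.04), while the co-receptor Erbb2, at -0.10, did not pass. The factor Pou3f2 and the ligand Dhh fell by 0.94 ± 0.18 and 0.66 ± 0.13. Nab1 and Nab2, the cofactors through which Egr2 acts, had values of -0.03 ± 0.04 each and did not pass. Nfatc4, Zeb2 and Yap1 rose by log2 fold changes of 0.32, 0.20 and 0.17, the last not passing with a single variance prior (adjusted p = 0.0802). Tead1, Smarca4 and Rxrg fell, with values of -0.39, -0.16 and -0.92. Smarca4 did not pass with plain library totals (adjusted p = 0.133), and the call of Rxrg, on 23 to 66 reads a sample, ended without control 2 (0.0647), control 3 (0.0749), high glucose 1 (0.0731) or high glucose 3 (0.0639). One variance prior for all genes also ended it (0.0865).

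Genes listed here as opposing myelination, a role not tested in these data, did not move as a block. Among 13 measured genes there were 7 that fell and 3 that rose, beside 25.5% and 24.9% of all genes, and the median log2 fold change was -0.27. With quantile normalization or plain library totals 5 were higher, beside 4139 and 5932 of all 16551 genes. With the latter the median was -0.15. Ednrb, an endothelin receptor of immature Schwann cells, was 5.59-fold lower (-2.48 ± 0.14), and Sox2, Lingo1, Egr3 and Id4 fell by 0.75, 0.81, 0.59 and 0.52 on the log2 scale. Dlg1 and Ezh2 fell by 0.27 and 0.23. Id2, an inhibitor of DNA-binding factors, rose 1.63-fold (0.70 ± 0.04), and Adam17, the protease that inactivates neuregulin, rose 1.12-fold. Jun, the factor that antagonizes Egr2 in Schwann cells, stood at 155.2 to 158.0 CPM in control and 161.6 to 165.3 CPM in high glucose (0.067 ± 0.023, adjusted p = 0.0283 in limma). That call ended without control 1 (0.0753), control 2 (0.0925), high glucose 2 (0.0831) or high glucose 3 (0.0537). It also ended with a replicate block (0.0591) and with a single variance prior (0.105), within a range from 2.04e-05 to 0.105.

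In the axon-glia junction list, 10 of 17 genes were called lower and 4 higher, beside 25.5% and 24.9% of all genes. Its median log2 fold change was -0.55, or -0.44 with plain library totals. Cadm4, the adhesion molecule by which Schwann cells hold axons along the internode, fell 1.73-fold (-0.79 ± 0.03), Cadm1 2.12-fold and Epb41l3, the band 4.1 protein beside them, 1.96-fold. Jam3, Cntnap1 and Ank2 rose by log2 fold changes of 0.62, 0.93 and 0.13. Of 17 genes of the contacts with the basal lamina, 9 were lower and 5 higher (median -0.15, or -0.04 with plain library totals). With a single variance prior 3 were higher, beside 3671 of all 16551 genes. The laminin receptor subunits Itgb1 and Itga6 fell 1.72-fold and 2.34-fold and Agrn 1.90-fold, while Sgcb, Sgce and Lamb2 rose by 0.37, 0.32 and 0.18. Itgb1 stood at 1722 to 3033 CPM over the samples, and which cells made these transcripts was not tested.

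Of 15 enzymes of myelin lipids, 6 rose and 5 fell, beside 24.9% and 25.5% of all genes (median 0.10). With 1 sample left out, 5 rose in each case and the median ran from 0.027 (without high glucose 2) to 0.12; it was also low without control 1 (0.033) and control 3 (0.053). With quantile normalization 3 were lower, beside 4085 of all 16551 genes. With plain library totals 2 were lower, beside 2847 of all genes, and the median was 0.21. With either filter on low values the median was -0.02. Ugt8, which makes the galactosylceramide of myelin, fell 2.14-fold (-1.10 ± 0.22, adjusted p = 0.000841 in limma). Fa2h, which hydroxylates the same lipid's fatty acids, had 1 read in each control sample and 11, 8 and 11 in high glucose. By reads it was at 9.25 times the control level (exact 95% interval from counting error 2.88 to 47.3). The limma fit gave 6.41-fold (2.68 ± 0.51, adjusted p = 0.000639). The lysosomal enzyme Smpd1 rose by 0.56 and Asah1 fell by 0.37. Scd2, a desaturase, fell by 0.10, but its direction turned under 2 scalings. With quantile normalization it passed as higher (0.086, adjusted p = 0.000227 in limma). With plain library totals it was at 0.012 and did not pass.

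**Figure D4:**
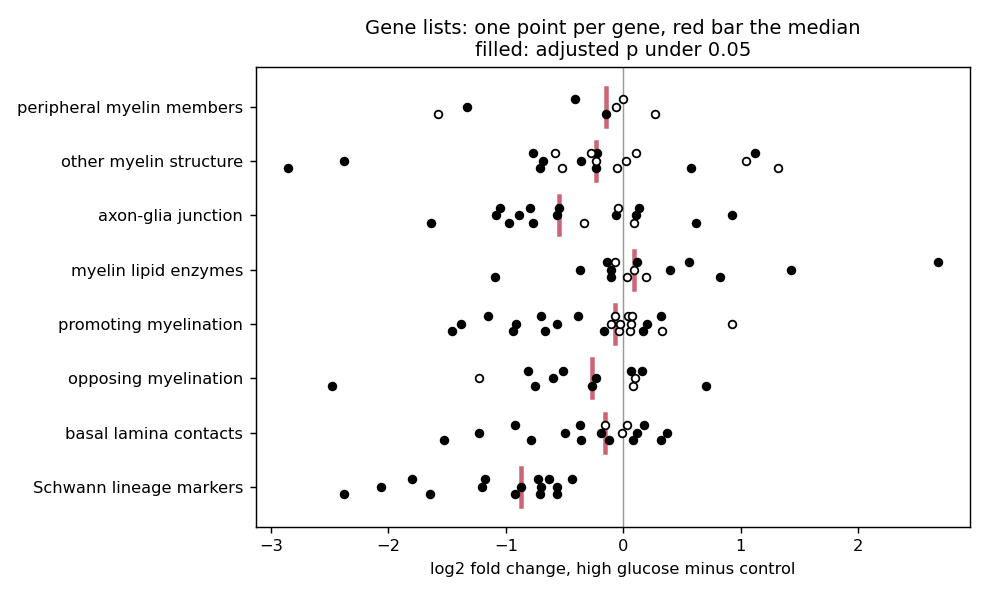
Log2 fold change (horizontal axis, high glucose minus control) of each gene in 8 lists, filled where the adjusted p was under 0.05, with the list's median as a red bar. The Schwann lineage markers lie wholly below 0 with a median of -0.87, while the 7 myelin genes have a median of -0.15 and the other lists spread to both sides.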

How the data were processed

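The labels name 3 control and 3 high-glucose samples by title. The tools listed, per the submitters' processing notes, are HISAT2 2.1.0, featureCounts 1.6.0 and fastp 0.19.4, on Rnor_6.0, with no role or settings. The annotation and the strand of counting are not given in the sources used here, so reads of overlapping genes on opposite strands cannot be told apart. The authors deposited log2 values, voom-normalized per the file names. Whole reads were worked back from them (100% of values within 0.01 read), with scaling factors of 0.959 to 0.964 for the controls and 1.03 to 1.05 for high glucose. No row of the lncRNA table carried a member's symbol.

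Tests used limma 3.58.1 in R 4.3.3 on the deposited log2 values, with group as the term. The fit was also run on simulated counts in which few, well-read genes changed, unlike these data. That run says nothing of the scarce genes or of the scaling. Where a symbol had several rows, the one with the highest mean was used. Lists of myelin genes, regulators and cell type markers were described by counts and medians. Of the lists of myelin structure, promoting and opposing genes any member could be named, of the others up to 3 called in each direction with the smallest p, and a few outside this rule (Rbfox3, Isl1, Pou4f1, Uchl1 and Olig1) were named after their values were seen. The members and lists were chosen with earlier results of these data known. Exact intervals are Clopper-Pearson and cover counting error only. Summaries and plots came from Python 3.11.15 (matplotlib 3.10.9). Alternatives were other scalings, voom weights, another variance prior, another offset, filters on low values, each sample left out and a replicate block. Single-gene values of some members of the lists are not reported here, though their counts and medians include them.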

Additional observations from a re-analysis of the deposited data

How the results depend on the processing

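Mbp and Egr2 kept their direction and passed under all 14 alternatives, with Mbp between -1.40 and -1.22. The number of the 7 genes that fell was 3 in the deposited scaling and 2 with plain library totals. Of all 16551 genes, 4228 and 2847 fell in these settings. Plain library totals also raised the share of higher genes among all that passed from 49.4% to 67.6%. There, Pmp22 (-0.037) no longer passed, the median of the 7 genes was -0.037, and Prx (0.11) and Cnp (0.052) changed sign. Prx was at 0.0041 with voom weights. Leaving out each sample in turn gave -0.076 to 0.071 for Prx, -0.10 to -0.017 for Cnp (which passed without high glucose 2), -0.17 to -0.13 for Pmp22, and 3 to 4 genes that fell. Mag and Pllp were removed by both filters on low values, which gave them no value, and passed under none of the other 12 alternatives. Scd2 was at 0.086 with quantile normalization, where it passed as higher, and at 0.012 with plain library totals, where it did not pass. Of 82 further genes that the rule for named genes admits, 9 did not pass under at least 1 alternative, and 1 of them (Scd2) changed sign. The log2 ratio of Mbp to Sox10 was -0.64, and -0.89 with S100b as the reference. Both references fell less than Mbp, and a marker that fell more, as L1cam did, would turn the sign. Samples with the same replicate number did not deviate together (r of -0.092, -0.043 and 0.025 over 12247 genes). The labels give no pairing, and these values cannot show whether such samples shared a preparation. With a replicate block, 3 of the 7 genes fell. The depth limited Mag, on 6 reads, and Pllp, on 93.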

Other observations

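Marker lists of other cells in the ganglion moved in different directions in the same comparison, in which 24.9% of all genes rose and 25.5% fell, and their part in the members' values was not tested. Of 9 satellite glia markers, 4 rose and 2 fell, with a summed level of 1128 to 1136 CPM in control and 1410 to 1449 CPM in high glucose. Most of that sum was Gja1 alone, at 959 to 963 CPM in control and 1195 to 1222 CPM in high glucose. The median log2 fold change of the 9 was 0.16. It was 0.28 with plain library totals and 0.25 with either filter on low values, which left 1 that fell. Glul, the glutamine synthetase of satellite glia, and Slc1a3, their glutamate transporter, rose by 0.90 ± 0.04 and 0.90 ± 0.07, and the connexin Gja1 by 0.33 ± 0.02, while Cdh19 and Fabp7, which the Schwann lineage list also holds, fell by 0.92 ± 0.05 and 1.2 ± 0.29. Of 6 oligodendrocyte markers, 1 rose (Aspa) and 1 fell (Sox10). Their levels were unequal: Olig1 had 0 to 2 reads in a sample and Mog 500 to 698.

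Of 14 neuron markers, 7 fell and 1 rose, and with either filter on low values 4 fell. Their summed level was 110.6 to 114.2 CPM in control and 75.96 to 77.91 CPM in high glucose, most of it from Uchl1 (47.7 to 60.6 CPM) and Tubb3 (8.63 to 23.6 CPM). Stmn2, a growth-associated tubulin-binding protein, was at 12.01 to 12.8 CPM in control and 2.30 to 3.27 CPM in high glucose, and the synaptic vesicle protein Syt1 was at 7.43 to 7.76 and 13.8 to 14.1 CPM. Isl1, Pou4f1 and Rbfox3 had 0 to 5 reads in a sample. The 9 fibroblast markers summed to 58718 to 60895 CPM in control and 55359 to 58005 CPM in high glucose (6 rose, 3 fell). The largest part of that sum was Col1a1, at 33617 to 36028 CPM in control and 25208 to 27749 CPM in high glucose. The list's median log2 fold change was 0.33, and 0.44 with plain library totals. Of the macrophage markers 1 of 8 rose and 3 fell, of the mural markers 2 of 10 rose and 6 fell, and of the perineurial markers 1 of 6 rose and 3 fell. The mural markers summed to 14751 to 14899 CPM in control and 8266 to 8326 CPM in high glucose. The perineurial sums were 604 to 627 and 505 to 541 CPM, and the macrophage sums 11.9 to 12.9 and 12.2 to 13.1 CPM. None of 7 endothelial markers passed in limma. Among them, 1 was called lower with quantile normalization, with either filter on low values, without control 3 and without high glucose 3. Without high glucose 1, 1 was called higher.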
